A study of Mus musculus and Homo sapiens with 12 samples.

Results

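B4 and ID elements are short interspersed elements (SINEs) of rodent genomes, and their RNA was followed here in chromatin-associated RNA (caRNA) bound by an antibody against 5-methylcytosine (m5C). They were all elements of the mm10 repeat table whose class is SINE and whose family is B4 or ID. That made 444161 of the 3158171 annotated elements, and 21641 of the 318953 elements that had any count. The B4 family holds the subfamilies RSINE1 (114019 elements), ID_B1 (107670), B4A (99124) and B4 (59234). The ID family holds ID4_ (26349), ID4 (23991), ID (8106) and ID2 (5668).

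The study asked how TET2, an enzyme that oxidises m5C, affects chromatin-associated repeat RNA. Wild-type (WT) and Tet2 knockout (KO, Tet2-/-) mouse embryonic stem cells (mESC) gave 3 m5C-precipitated caRNA libraries each. Both lines came from another laboratory and grew in serum with LIF and inhibitors of GSK3 and MEK, and both were passaged on gelatin to clear feeder cells. The study calls its replicates biological, but whether they were separate cultures is not given in the sources used here, so p-values measure only the spread between these libraries. One KO line was compared with one WT line, so genotype and line cannot be told apart. The table holds repeats alone, and neither Tet2 RNA nor stem cell markers were checked here. Values are estimated counts, without input RNA or spike-in, so a difference between KO and WT mixes RNA abundance with antibody capture and is relative to the other repeats. Fewer cells making an RNA and less RNA per cell cannot be told apart in such bulk libraries.

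ID elements descend from a tRNA-like RNA gene and carry an internal promoter of RNA polymerase III, whose A box and B box lie inside the transcribed sequence. B4 elements join an ID-like left part to a B1-like right part, and ID_B1 is a related fusion. RSINE1 is an older rodent SINE placed in the B4 family. Most copies of such elements are truncated and mutated. They can be copied by polymerase III from their own promoter or as part of a longer polymerase II transcript when they lie in a gene, and a count on an element does not separate these routes.

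The following 9 copies were chosen by difference, by spread over libraries or by level. The ID and ID_B1 copies differed between genotypes or were the most widely counted near full-length copy of their subfamily. The B4 copy is the most widely counted near full-length one, though it held only 0.2 to 3.2 counts per library. The last 3 are among the elements with the highest mean counts. Sequences are from mm10, 5′ to 3′ on the element's strand. Capitals mark TAGCTCAG, letters of the A box, searched on both strands.
ID4_ in an intron of Pml, chr9:58241093-58241174, minus strand: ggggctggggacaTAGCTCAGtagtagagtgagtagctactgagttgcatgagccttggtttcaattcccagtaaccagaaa
ID4 in an intron of Efs, chr14:54923632-54923701, minus strand: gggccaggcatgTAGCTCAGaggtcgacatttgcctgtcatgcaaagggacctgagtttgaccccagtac
ID2 in an intron of Rev3l, chr10:39839662-39839734, plus strand: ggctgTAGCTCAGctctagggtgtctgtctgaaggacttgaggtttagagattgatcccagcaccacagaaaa
ID_B1 between genes, chr5:144680368-144680581, plus strand: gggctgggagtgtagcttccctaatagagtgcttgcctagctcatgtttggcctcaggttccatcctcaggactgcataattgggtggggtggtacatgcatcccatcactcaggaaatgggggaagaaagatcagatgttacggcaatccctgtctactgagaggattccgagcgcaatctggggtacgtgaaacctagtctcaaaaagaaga
ID_B1 in an intron of C130026I21Rik, chr1:85189263-85189348, minus strand: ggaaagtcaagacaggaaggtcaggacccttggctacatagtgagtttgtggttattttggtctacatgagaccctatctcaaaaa
B4 near Hmcn2, chr2:31307265-31307518, plus strand: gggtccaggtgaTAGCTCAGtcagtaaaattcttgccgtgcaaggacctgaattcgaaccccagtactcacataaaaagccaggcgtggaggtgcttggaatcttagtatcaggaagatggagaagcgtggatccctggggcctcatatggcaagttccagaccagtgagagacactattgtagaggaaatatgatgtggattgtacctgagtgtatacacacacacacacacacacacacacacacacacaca
B4A in an intron of Rab7, chr6:88035262-88035539, minus strand: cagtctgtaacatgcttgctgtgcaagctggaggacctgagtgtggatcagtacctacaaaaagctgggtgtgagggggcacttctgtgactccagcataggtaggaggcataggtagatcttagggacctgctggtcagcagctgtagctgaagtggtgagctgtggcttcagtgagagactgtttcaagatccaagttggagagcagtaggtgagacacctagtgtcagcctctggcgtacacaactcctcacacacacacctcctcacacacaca
B4A near Gm8300, chr12:87512543-87512607, minus strand: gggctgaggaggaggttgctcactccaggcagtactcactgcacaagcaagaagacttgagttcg
RSINE1 in an intron of As3mt, chr19:46718567-46718687, plus strand: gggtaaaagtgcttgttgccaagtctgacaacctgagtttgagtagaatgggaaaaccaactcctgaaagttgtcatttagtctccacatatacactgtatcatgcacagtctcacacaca

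The search found TAGCTCAG in 4 of these 9 copies, the ID4_, ID4, ID2 and B4 ones. Over all B4 and ID elements it occurred in 4.51% on the element's strand and in 0.983% on the other strand. Its share was 10.2% to 14.5% in the ID family subfamilies and 2.07% to 4.56% in the B4 family subfamilies. GGTTCG, letters of the B box, occurred in 0.714% of elements on their own strand and in 0.333% on the other strand. The motifs do not overlap each other. Elements with counts held TAGCTCAG about as often as all elements of their subfamily, for example 13.9% against 13.1% for ID4_ and 2.26% against 2.07% for RSINE1. A match is only a description of the letters.

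The libraries held 2199886 to 3318565 counts over the 4 classes DNA, LINE, LTR and SINE per WT library and 1532029 to 1999210 per KO library, so depth moved with genotype. B4 and ID elements took 10109 to 17790.2 of these counts per WT library and 11031 to 12563 per KO library. Their part of all counts was thus small, and between 3893 and 5360 B4 and ID elements had a count in a library.

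The B4 family took a larger share of the counts in every KO library than in any WT library. Its share was 0.412%, 0.544% and 0.339% in WT replicates 1 to 3 and 0.571%, 0.686% and 0.597% in KO. The means were 0.432% ± 0.104 and 0.618% ± 0.0600 (SD, n = 3 per group), a log2 ratio of 0.52. The groups did not overlap, which gave an exact permutation p of 0.1, the smallest that 3 against 3 libraries allow. Adjusted over the 9 exact tests of this kind the p was 0.6, so the difference is not significant.

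The ID family share was 0.0475%, 0.0173% and 0.0205% across WT and 0.0695%, 0.0596% and 0.0318% in KO. WT replicate 1 lay above KO replicate 3, so the groups overlapped. The log2 ratio was 0.91 (exact permutation p = 0.2, adjusted 0.6). Within SINEs alone the difference was small. They made up 16.8%, 23.3% and 16.5% of the SINE counts across WT and 18.9%, 22.3% and 19.3% in KO, which is a log2 ratio of 0.10, within the spread between replicates (exact permutation p = 0.6, adjusted 0.9).

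Per length of annotated sequence, both families were sparsely covered. The level of the B4 family was 69.5 ± 16.7 CPM per Mb (counts scaled to a common library total, per megabase) across WT and 99.5 ± 9.66 in KO (SD, n = 3), and that of the ID family was 63.1 ± 36.8 and 119 ± 43.5. On the same scale the B1 elements, filed under Alu, stood at 133 ± 16.4 and 209.7 ± 31.5, the B2 family at 168 ± 24.0 and 191 ± 22.5, and MIR at 34.9 ± 3.75 and 39.5 ± 3.25. LINE elements stood at 838 ± 17.1 across WT and 762 ± 10.0 in KO, lower in every KO library, and LTR elements at 895 ± 30.1 and 1029.8 ± 23.3, higher in every KO library, and both classes belong to the total that the shares are taken of. B4 and ID therefore lay above MIR and below B1 and B2 in mean level, although the ID spread reached from 38.5 in WT replicate 2 to 154 in KO replicate 1. Counts were found on 5.23% of B4 family and 2.75% of ID family elements, against 7.81% for B1 and 7.34% for B2.

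Counts were then summed per subfamily and compared by edgeR's quasi-likelihood test over all 546 subfamilies that passed its filter. A call is a Benjamini-Hochberg adjusted p under 0.05. None of the 8 B4 and ID subfamilies was called, where 2.01% of all subfamilies were, and 0 had an unadjusted p under 0.05, where 15.9% did. DESeq2's Wald test also called 0 of the 8, where it called 10.8% of all subfamilies to which it gave an adjusted p. All 8 fitted log2 changes were above 0, against 55.5% over all subfamilies. Their median was 0.37, and the median over all subfamilies was 0.11. The 8 were measured in the same 6 libraries with the same scaling, so their signs are not independent. The 26 other SINE subfamilies had a median of 0.33 with 20 above 0, and 0 were called.

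**Figure D1:**
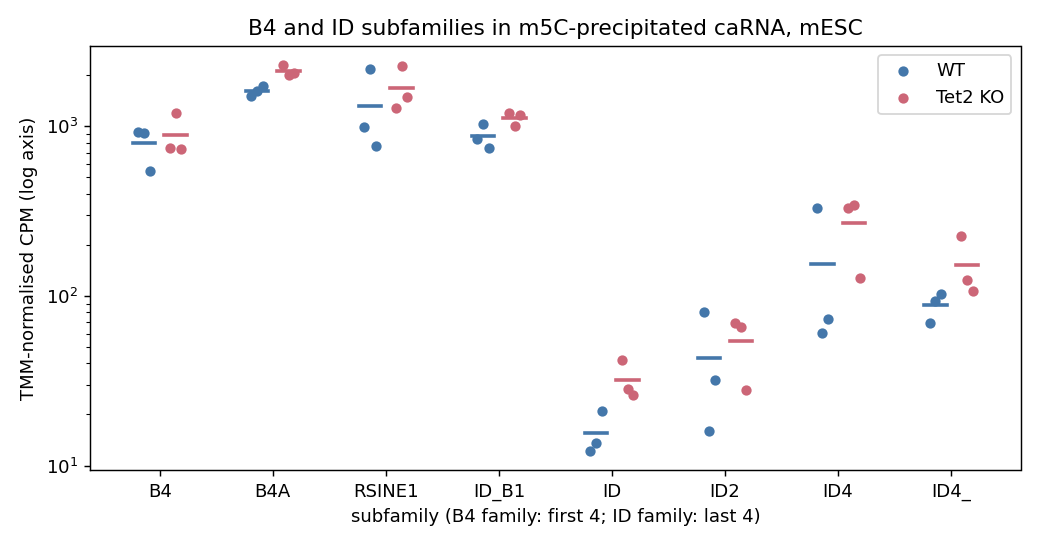
TMM-normalised CPM of the 8 subfamilies on a log axis, with 1 point per library, WT in blue and Tet2 KO in red, and a bar at each group mean. The KO points lie above all WT points for B4A, ID and ID4_, and the groups overlap for the other subfamilies.

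B4A, a fused ID and B1-like element, was the most evenly measured subfamily. It stood at 1507, 1618 and 1719 CPM (counts scaled by TMM to a common library size) across WT and at 2289, 1999.7 and 2064.5 in KO. Every KO library was above every WT library, and the log2 change was 0.39 ± 0.168 (SE, edgeR adjusted p = 0.302). The ID subfamily stood at 12.2, 13.6 and 20.8 across WT and at 42.0, 28.4 and 26.0 in KO, again with no overlap, a log2 change of 1.00 ± 0.513 (edgeR adjusted p = 0.365). ID4_ stood at 69.4, 92.9 and 103 across WT and 227, 123 and 107 in KO, where KO replicate 1 was far above the rest and KO replicate 3 barely passed the highest WT library (log2 change 0.78 ± 0.542, edgeR adjusted p = 0.489, and 0.38 without KO replicate 1). Groups with KO wholly above WT were thus found for 3 of 8 subfamilies, and for 11.2% of all subfamilies tested.

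In the other subfamilies the groups overlapped. ID_B1 stood at 836, 1028 and 749 CPM across WT and 1189.7, 1002 and 1159 in KO (log2 change 0.36 ± 0.231, edgeR adjusted p = 0.467). Only WT replicate 2 reached into the KO range. RSINE1 was high in replicate 2 of both genotypes, at 988, 2181 and 767 across WT and 1276, 2279 and 1492 in KO (0.36 ± 0.430, adjusted p = 0.731). Its change was 0.92 without WT replicate 2, 0.20 without WT replicate 1, 0.073 without WT replicate 3 and 0.094 without KO replicate 2. B4 stood at 919, 912 and 545 across WT and 746, 1200.4 and 729.9 in KO (0.17 ± 0.330, adjusted p = 0.820). Its change had the other sign without WT replicate 3 (−0.047) and without KO replicate 2 (−0.086).

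The smaller ID subfamilies were uneven in WT. ID4 stood at 328, 60.2 and 73.3 CPM across WT and 332, 346 and 128 in KO (log2 change 0.80 ± 0.776, edgeR adjusted p = 0.644). ID2 stood at 80.6, 16.0 and 31.9 across WT and 69.4, 65.4 and 27.8 in KO (0.33 ± 0.780, adjusted p = 0.857). In both, WT replicate 1 matched the high KO libraries. Without it the ID4 change was 2.00 and the ID2 change 1.15, and without WT replicate 2 they were 0.41 and −0.064.

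**Figure D2:**
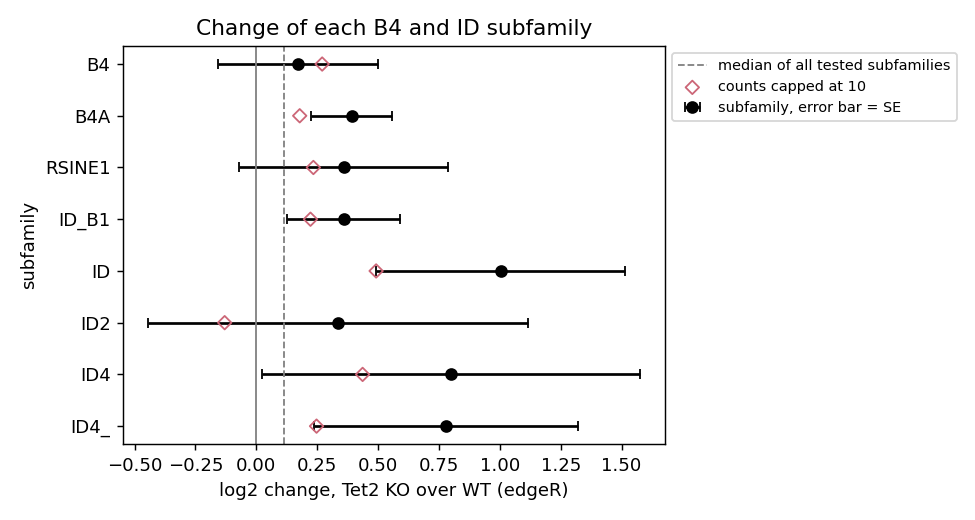
Log2 change of each subfamily, Tet2 KO over WT, with its standard error (black), and the same change with the count of any element in a library capped at 10 (open diamonds). The dashed line is the median of all tested subfamilies, 0.11, and ID2 is the only subfamily whose capped value, −0.13, lies below 0.

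A few elements carried much of the counts. The 10 highest B4 and ID elements of a library held 19.3% to 32.5% of its B4 and ID counts, and 97 to 135 elements with more than 10 counts held 44.9% to 62.5%. At the other end, 3232 to 4719 elements per library had 2 counts or fewer. Of the 21641 elements with counts, 80.4% had them in 1 library alone, and these held 59.4% of the B4 and ID counts. Only 64 elements had counts in all 6 libraries, with 2.1% of the counts.

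**Figure D3:**
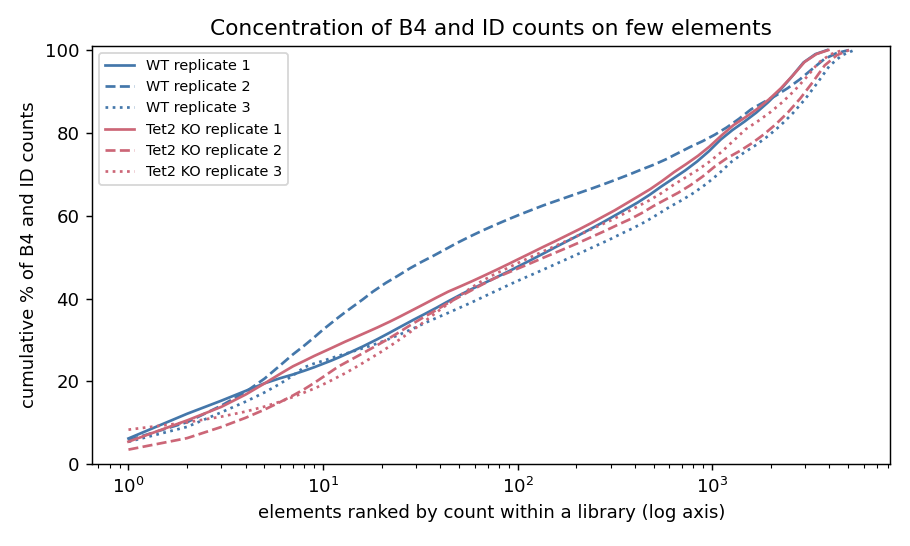
Cumulative percentage of the B4 and ID counts of each library against its elements ranked from the highest count down, on a log axis, with WT in blue, Tet2 KO in red and line types for replicates 1 to 3. The 10 highest elements hold 32.5% in WT replicate 2 and 19.3% in KO replicate 3.

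Among the 168 elements with at least 50 counts over the 6 libraries, 132 (78.6%) had 90% or more of their counts from a lone library. For other repeats the share was 75.7% of 420 such elements for B1 and 66.1% of 554 for B2, but 8.87% of 19513 for LINE elements. They were found in every library, 11 to 30 of the 132 in each WT library and 17 to 31 in each KO library. Identical copies were frequent among the 168: 77 of them (45.8%) had the same sequence as another B4 or ID element, against 1.42% of all those with counts and 1.80% of all elements. Reads that lie wholly within identical copies cannot be assigned to one of them. How far reads reached into flanking sequence was not checked, so the locus values of these copies are uncertain.

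The 10 elements with the highest mean level showed this unevenness. A 65-base piece of B4A on chromosome 12 (87512543 to 87512607), 1709 bases from Gm8300, held 602 and 1049.7 counts in KO replicates 1 and 3, 1 count in WT replicate 1 and 0 in the rest. A B4A element of 522 bases in an intron of Acap2 on chromosome 16 (31181717 to 31182238) held 239, 568 and 309 across WT and 204, 0 and 0 in KO. The 1 other repeat within 1000 bases of it held 243, 568 and 309 across WT and 204, 0 and 0 in KO. These counts can therefore not be credited to the B4A element alone. The log2 change of this B4A element was −1.48 ± 1.76 (edgeR adjusted p = 0.664). The B4A copy in Rab7, a gene for a late endosome GTPase, held 1033 counts in WT replicate 2 and 0 elsewhere.

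RSINE1 gave 3 of these 10 elements. The copy in As3mt, the gene for arsenite methyltransferase, held 185, 481 and 9.33 counts across WT and 2.67, 0 and 1.53 in KO. The copies on chromosome 17 (14984525 to 14984645), in 9030025P20Rik, and on chromosome 14 (41936800 to 41936916) held 773 and 712 counts in WT replicate 2 and 0 in the other libraries. The 4 elements not yet described, 3 B4A and 1 B4, each took at least 98.7% of their counts from 1 library, which was WT replicate 1 for 2 of them, KO replicate 1 for 1 and KO replicate 2 for 1. Of the 10 elements only the Acap2 copy had enough counts in enough libraries to be tested.

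The KO excess of both families depended on how single elements were weighed. Without the 10 B4 and ID elements of highest mean count, the B4 share had a log2 ratio of 0.73 without overlap (exact permutation p = 0.1) and the ID share 0.91 with overlap (exact permutation p = 0.2). With each element capped at 10 counts per library, a setting chosen after seeing the data, the B4 share had a log2 ratio of 0.29 and the ID share 0.38. Neither pair of groups then overlapped, and the exact permutation p was 0.1 for each. With every element that had counts taken as 1, B4 elements made up 3.09%, 3.48% and 3.71% of the elements with counts across WT and 3.48%, 4.46% and 3.92% in KO, a log2 ratio of 0.21 with overlap (exact permutation p = 0.3), and the ratio for ID elements was 0.31 (exact permutation p = 0.2).

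Elements with counts lay more often inside genes, in the orientation of the gene, than the annotation at large. Of all B4 and ID elements 23.3% lay in an intron on the gene's strand, 27.9% in an intron on the other strand, 43.4% between genes and 3.33% on an exon. Introns with genes on both strands, a class not compared between genotypes below, held 1.98% of all elements and 2.64% of those with counts. For the other places, in the order given, the shares of elements with counts were 37.0%, 22.9%, 32.4% and 5.01%. Every subfamily followed this pattern, with 21.8% to 25.8% of all its elements on the gene's strand in introns and 33.8% (B4) to 47.2% (ID4_) of those with counts. Elements with counts were also longer than those without, with medians of 167 and 136 bases, richer in GC (means of 49.2% and 47.8%) and richer in CpG (1.14 and 0.833 per 100 bases). These are descriptions without a test, since elements are not replicates.

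With all counts included, differences between genotypes in the division of counts among these places lay within the replicate spread. Introns on the gene's strand took 32.4%, 40.1% and 32.1% of the B4 and ID counts across WT and 34.5%, 37.8% and 34.7% in KO (difference 0.772 percentage points, exact permutation p = 0.8, adjusted 0.9). The differences were −0.995 for introns on the other strand, −0.999 between genes and 0.407 on exons, with exact permutation p-values of 0.7 to 0.9. The count-weighted GC content was 49.2% ± 0.333 across WT and 49.0% ± 0.417 in KO (SD, n = 3), and the count-weighted length was 199 ± 13.8 and 183 ± 6.03 bases, with overlapping groups for both (exact permutation p = 0.6 and 0.2).

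A few elements moved these values. Without the 10 B4 and ID elements of highest mean count, introns on the gene's strand took 33.8%, 31.4% and 32.0% of the counts across WT and 35.2%, 37.8% and 37.9% in KO, a difference of 4.55 points. Places between genes took 33.5%, 40.1% and 37.6% across WT and 26.9%, 31.8% and 32.5% in KO, a difference of −6.68 points. Neither pair of groups overlapped, and the exact permutation p was 0.1 for each, the smallest possible.

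The genotypes also separated when every element with counts was taken as 1, a weighting chosen after seeing the data. Elements in introns on the gene's strand then made up 35.0%, 35.1% and 34.0% across WT and 37.7%, 39.6% and 40.1% in KO. The share was thus higher in every KO library, by 4.42 percentage points between the means of 34.7% ± 0.600 and 39.1% ± 1.24 (SD, n = 3). Elements between genes made up 34.6%, 34.5% and 34.3% across WT and 32.4%, 31.4% and 31.8% in KO, which was lower in every KO library by 2.63 points. Introns on the other strand were lower by 2.20 points, and exons differed by 0.115 points. The first 3 differences had an exact permutation p of 0.1, the smallest possible, and 0.392 after adjustment over 192 such comparisons, so they are not significant. With counts capped at 10 the difference for introns on the gene's strand was 4.86 points, again without overlap.

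**Figure D4:**
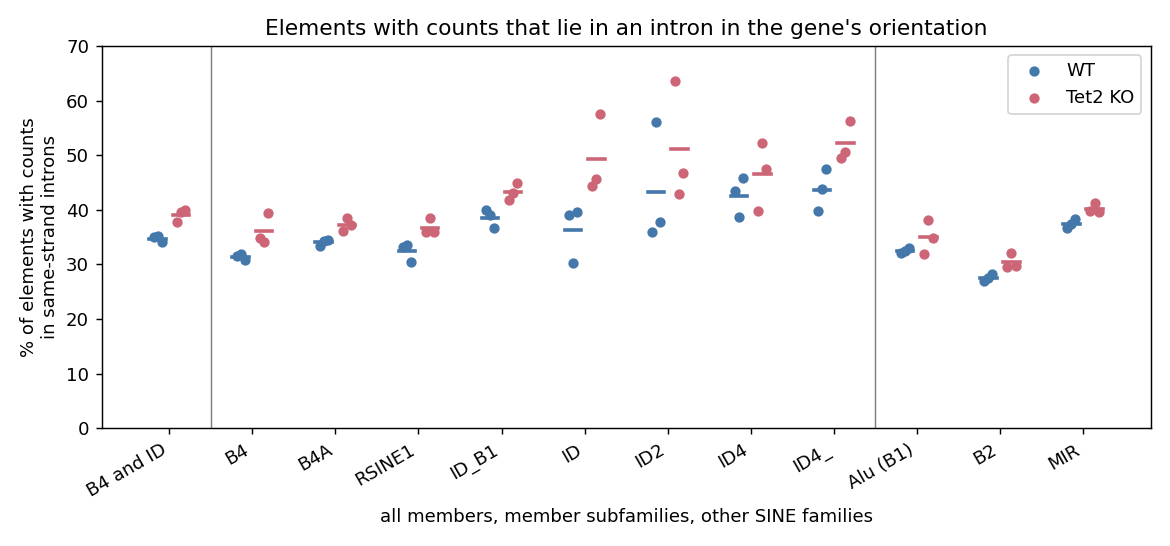
Percentage of elements with counts that lie in an intron in the orientation of the gene, for all B4 and ID elements, the 8 subfamilies and 3 other SINE families, with 1 point per library (WT blue, Tet2 KO red) and a bar at each mean. Over all B4 and ID elements the WT libraries lie at 34.0% to 35.1% and the KO libraries at 37.7% to 40.1%.

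The same order was seen in most subfamilies. KO lay wholly above WT in 6 of the 8, B4, B4A, RSINE1, ID_B1, ID and ID4_, against 14.5% of the 311 subfamilies that had at least 20 elements with counts in every library. The median difference was 4.72 points for the 8 and 1.00 for the 311. ID4_ stood at 43.7% ± 3.86 in WT against 52.2% ± 3.66 for KO, and B4A at 34.0% ± 0.598 against 37.3% ± 1.15. ID4 and ID2 overlapped, with 42.6% ± 3.66 and 46.5% ± 6.20 for ID4.

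Other SINEs differed in the same direction by smaller amounts. The difference was 2.90 points for B2 and 2.82 for MIR without overlap, and 2.47 for B1 with overlap. The gap between B4 and ID and all other SINEs was 4.81, 4.62 and 2.65 points across WT and 6.37, 3.48 and 6.96 in KO, which was larger in KO by 1.58 points on average and overlapped between genotypes (exact permutation p = 0.3, and 0.3 in each of the comparisons with B1, B2 and MIR alone). A difference particular to B4 and ID was therefore not shown. KO libraries were also the shallower ones, and the part of depth in this result was not tested.

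Single loci were tested where the counts allowed. Of the 21641 elements with counts, 14 passed edgeR's filter, out of 19030 loci of any kind. None of the 14 was called, where 0.0473% of all loci were. An unadjusted p under 0.05 was found for 6, with 5 higher and 1 lower in KO. Of all 19030 loci it was found for 21.0%, 2492 higher and 1508 lower in KO. The same 5 and 1 were the loci whose groups did not overlap once scaled to depth. This held for 31.3% of all loci, 2208 higher and 3740 lower in KO. Of these 6 loci, 3 met the count minimum of the filter in KO libraries alone and 1 in WT libraries alone. The first 3 are the ID4_ copy in Pml and the ID_B1 copies on chromosome 5 and in Tnip1. The locus that met it in WT alone is the ID_B1 fragment on chromosome 1. The B4A copy in Tenm4 met it in 1 WT and 3 KO libraries, and the B4 copy in Rbpj in 2 WT and 3 KO libraries. A locus that passes only through the group where it is high is bound to differ. One that meets the minimum in more libraries of that group is favoured to differ. The values of all 6 loci are therefore descriptions. Among the 737 B4 and ID loci with at least 10 counts in sum, 58 had an unadjusted p under 0.05 with a higher and 13 with a lower KO level, against 6.05% and 4.65% of all loci so filtered, and 0 were called by edgeR. DESeq2's Wald test called 4 of the 14, where it called 11.5% of all loci with an adjusted p. They are the loci described next, which were chosen because they had the smallest p without overlap between the groups.

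An ID4_ copy of 82 bases in an intron of Pml, the gene that builds PML nuclear bodies, lies on chromosome 9 (58241093 to 58241174) in the gene's orientation. It held 2, 4.5 and 1.5 counts across WT and 12.6, 10.0 and 10.5 in KO, so that every KO library exceeded every WT library despite the lower depth. The log2 change was 2.21 ± 0.359 (edgeR adjusted p = 0.0975, DESeq2 adjusted p = 0.0131). Its edgeR adjusted p was 0.0975 to 0.363 under the alternatives. It is nearly full length, at 97.6% of the consensus, and contains TAGCTCAG.

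A B4A copy of 330 bases in an intron of Tenm4, a teneurin gene, on chromosome 7 (96266466 to 96266795) held 5, 4 and 16 counts across WT and 46, 50 and 41.2 in KO. Its log2 change was 3.14 ± 0.589 (edgeR adjusted p = 0.101, DESeq2 adjusted p = 4.97e-05). An ID_B1 copy on chromosome 5 (144680368 to 144680581), 43046 bases from the nearest annotated gene Gm6272, held 9.87, 2 and 10.7 counts across WT and 72.5, 51.4 and 58.2 in KO. Its log2 change was 3.53 ± 0.675 (edgeR adjusted p = 0.101, DESeq2 adjusted p = 7.05e-06), and the 2 other repeats within 1000 bases of it together held at most 3.33 counts in any library. Both copies are close to full length and have no identical copy among B4 and ID elements.

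The locus lower in KO was an ID_B1 fragment of 86 bases on chromosome 1 (85189263 to 85189348), inside introns of the overlapping genes C130026I21Rik, Gm2619 and Gm6264. It held 71.9, 39.7 and 55.4 counts across WT and 0 in each KO library. Against the limit of 3 counts that a count of 0 allows over the KO group, it was at least 33.6-fold lower in KO, a bound that covers counting error only. At this locus the fitted log2 change, with a prior count of 2, was −4.53 ± 0.601 (edgeR adjusted p = 0.101, DESeq2 adjusted p = 3.34e-05). With 0 counts in every KO library, this change and its SE depend on the prior count, so the SE is not a measured precision. No other repeat element with counts lay within 1000 bases of it.

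Of the other loci without overlap, which the naming rule did not select, an ID_B1 copy in Tnip1 held 1.5, 5 and 6.1 counts across WT and 11, 8 and 11.5 in KO, and a B4 copy in Rbpj held 15.5, 7.2 and 31.2 across WT and 25.9, 23.0 and 81.7 in KO. The latter overlaps in raw counts, and separated only after scaling to depth. In the 8 remaining tested loci the groups overlapped. The ID2 copy in Rev3l, printed as the most widely counted near full-length copy of its subfamily and too low to be tested, held 0, 0 and 1 counts across WT and 7, 9 and 14 in KO. The ID4 copy in Efs held 0, 0 and 2 across WT and 9.2, 4 and 1 in KO.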

How the data were processed

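Per the methods and labels, reads were trimmed (Trimmomatic 0.39), mapped to mm10 with the transcriptome and spike-ins (HISAT2 2.1.0), deduplicated (Picard) and counted over repeat elements by the authors with featureCounts. The deposited values are estimated counts per element and library, and for B4 and ID elements 59.6% of the non-zero values were whole and the smallest was 0.05. The options behind the fractions and the strand setting are not given in the sources used here. The human table, with 6 of the 12 samples, was not used.

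B4 and ID elements were taken by class and family. Coordinates are 1-based. Of them 443642 lay on chromosomes of the mm10 reference and 519 elsewhere. Gene context came from GENCODE M21, with introns and strands as annotated.

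Counts were rounded and tested with edgeR 4.0.16 (filterByExpr, TMM, quasi-likelihood test, prior count of 2) over all subfamilies or loci of the table, two-sided, with Benjamini-Hochberg adjustment. The SE is the absolute log2 change over the square root of F. Shares, contexts, GC and length were compared by exact permutation, two-sided, of the 6 libraries (20 ways, smallest p 0.1). The tests were checked on simulated data. A near full-length copy covers at least 85% of the consensus. Apart from the bound for a count of 0, no counting interval is given. The totals of the libraries set the precision, and PCR reads are not independent molecules.

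All 8 subfamilies were named, with the 10 elements of highest mean level, any called locus, and up to 3 tested loci per direction with the smallest p among those without overlap. Alternatives were DESeq2 1.42.0, other scalings and filters, removal of the highest or exonic elements, a replicate block and leaving out each library. The members and lists were chosen with earlier results of these data known. Scripts ran in R 4.3.3 and Python 3.11.15 with pysam 0.24.0 for sequences, SciPy 1.17.1 and matplotlib 3.10.9.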

Additional observations from a re-analysis of the deposited data

How the results depend on the processing

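No B4 or ID subfamily was called under any of the 16 alternatives, and no B4 or ID locus in the 12 other than the DESeq2 Wald test. That test called 4 of 14 loci, against 11.5% of all loci. Of these 4, the Pml, chromosome 5 and chromosome 1 copies met the filter's count minimum only in the group where they are high. The Tenm4 copy met it in 3 KO libraries and 1 WT library. The calls of all 4 are therefore descriptions. Leaving out each library gave log2 ratios of 0.37 to 0.72 for the B4 share, 0.66 to 1.5 for the ID share and 0.011 to 0.28 for the share of SINE counts. Without the 10 highest B4 and ID elements the B4 ratio was 0.73, and the differences for introns on the gene's strand and between genes were 4.55 and −6.68 points. The share ratios and the length difference kept their sign throughout. The subfamily changes kept theirs except B4 (−0.086 to 0.30 when a library was left out, below 0 without WT replicate 3 or Tet2 KO replicate 2) and ID2 (−0.064 to 1.15, below 0 without WT replicate 2, and −0.13 with counts capped at 10, chosen after seeing the data). The context and GC differences, none past the threshold, changed sign in places. For exons the difference was −0.185 without the 10 highest B4 and ID elements, −0.0412 with capped counts and −0.778 to 1.43 when a library was left out. For introns on the gene's strand it was −1.73 with elements of at least 10 counts and −0.625 to 3.40 when a library was left out. For introns on the other strand it was 0.788 without the 10 highest B4 and ID elements and −4.82 to 1.26 when a library was left out. Between genes it was 0.292 with elements of at least 10 counts and −3.35 to 0.554, and for GC content 0.0125 with capped counts and −0.362 to 0.0453. The cause was not tested.

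Same-numbered libraries of the genotypes did not deviate together (correlations of −0.094, −0.037 and −0.046 over subfamilies). Whether they were prepared together is not given in the sources used here, and these correlations cannot decide it. With a replicate block the log2 ratios were 0.54 for B4, 0.99 for ID and 0.11 within SINEs, and 0 subfamilies and 0 loci of B4 and ID were called; over all subfamilies 0 were called, against 11 without the block. Library totals in place of TMM moved the median change of all subfamilies from 0.11 to 0.29 and that of the 8 from 0.37 to 0.56. Of the B4 and ID elements with counts 80.4% had them in 1 library alone, and 14 could be tested. The part of depth in this was not tested.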
